A study of Mus musculus with 6 samples.

Results

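Spermatogenic cells carry their own copies of several enzymes of glycolysis and pyruvate use. The genes followed here were 10 of the 32285 genes counted. Ldhc, Pgk2, Gapdhs and Pdha2 are such germ cell copies, and 5 are counterparts used by most other tissues (Ldha, Ldhb, Pgk1, Gapdh and Pdha1). Slc2a3, a glucose transporter gene, is no such copy but is grouped with the germ cell genes below. Its share is taken against Slc2a1, which is not among the 10. The 10 genes were chosen by name, with earlier results of these data known, and the rule itself uses no measured value. Their transcripts were counted as UMIs (unique molecular identifiers, 1 per captured RNA molecule) in droplet single-cell libraries of mouse testis. The 6 libraries came from 8-week-old wild-type C57BL/6N mice (C57BL/6 in the labels), 3 labelled HFD (high-fat diet) and 3 labelled LFD (low-fat diet), each fed for 2 weeks with no other treatment. For all 6 libraries the diet in the name of the deposited file is the other one. Groups follow the sample titles, and every sign of a diet difference would turn over if the file names were right. By the methods the number of mice per diet equals the number of libraries, 3, which makes 1 mouse per library, although no label ties a library to an animal.

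The libraries held 48939 cell barcodes and 429495465 UMIs, from 39196921 to 95845514 UMIs per library. Barcodes were placed in a germ stage by the UMIs of fixed stage markers, none of which is a gene followed here, and 10881 of them (22.2%, holding 69.8% of the UMIs) fell in 1 of 9 germ stages. Spermatogonia had 751 barcodes, early spermatocytes 820, pachytene spermatocytes 2375, late spermatocytes 1345, early round spermatids 636, later round spermatids 2329, spermatids starting elongation 870, elongating spermatids 1026 and late condensing spermatids 729. These are marker gates and not clusters. Of the 82 markers, which set the gates, 75 were highest in their own gate. Sall4 was highest in the spermatogonial gate (71.8 CPM, counts per 1000000 UMIs) and Meiob in the early spermatocyte gate (251 CPM), although the spermatogonial marker Dmrtb1 was highest in late spermatocytes. A further 546 barcodes were gated as Sertoli cells, macrophages or Leydig, peritubular and stromal cells. The replicate 1 libraries of both diets stood apart from the other 4, with summed haemoglobin transcripts at 0.0209 and 0 CPM against 30.5 to 99.7 CPM. Library pairs shared 12 to 28 barcode sequences, of which at most 3 lay in germ gates.

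Lactate dehydrogenase interconverts pyruvate and lactate, and phosphoglycerate kinase and glyceraldehyde-3-phosphate dehydrogenase carry out adjoining steps of glycolysis. E1 alpha is a subunit of pyruvate dehydrogenase, which acts on pyruvate inside the mitochondrion. Spermatocytes and round spermatids are known to live largely on lactate supplied by Sertoli cells, whereas glycolysis along the tail supports the motility of sperm. Pgk1 and Pdha1 lie on the X chromosome, which is silenced in pachytene spermatocytes, and Pgk2 and Pdha2 are autosomal copies of them that arose by retroposition. All of this is background from textbooks and not a result of these libraries.

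The loci show how the copies are arranged, in GRCm38. Ldhc spans positions 46861203 to 46878142 of chromosome 7 on the plus strand, and its neighbour Ldha spans 46841475 to 46855627 on the same strand. Pgk2 (chromosome 17, 40207015 to 40208640, minus strand) and Pdha2 (chromosome 3, 141210004 to 141212355, minus strand) each had 1 coding transcript with 1 exon, against 11 exons in the only coding transcript of X-linked Pgk1 (106187100 to 106203699) and of X-linked Pdha1 (160122209 to 160138413). Gapdhs lies on chromosome 7 (30729775 to 30743681, minus strand) and overlaps the antisense genes Tmem147os and Gm26935. Ldhb (142490249 to 142507957), Gapdh (125161715 to 125166467) and Slc2a3 (122727809 to 122801640) lie on the minus strand of chromosome 6. The annotated transcripts of isozymes within a family shared 0 stretches of 50 bases, so reads of that length that match perfectly would not be split between them.

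The 100 bases before the RefSeq transcription start are shown for the 4 germ cell isozymes and the counterpart of each, to set the sequences next to both genes of a pair side by side. RefSeq promoters of GRCm38.p6 were found for 9 of the 10 genes. Capitals mark matches, on either strand, to TGACG or TGACGTCA (the core and the full cAMP response element), TAACNG (a MYB site), CCAAT and TATAAA. The core lies within the full element, and matches that cross the start are left in lower case. The windows are chr7:46861163-46861262 (plus strand) for Ldhc, chr7:46845704-46845803 (plus strand) for Ldha, chr17:40208610-40208709 (minus strand) for Pgk2, chrX:106187000-106187099 (plus strand) for Pgk1, chr7:30743682-30743781 (minus strand) for Gapdhs, chr6:125165774-125165873 (minus strand) for Gapdh, chr3:141212356-141212455 (minus strand) for Pdha2 and chrX:160138431-160138530 (minus strand) for Pdha1, each written 5′ to 3′ along its gene.
Ldhc: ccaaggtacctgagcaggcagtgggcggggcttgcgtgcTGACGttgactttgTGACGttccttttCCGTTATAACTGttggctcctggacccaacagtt
Ldha: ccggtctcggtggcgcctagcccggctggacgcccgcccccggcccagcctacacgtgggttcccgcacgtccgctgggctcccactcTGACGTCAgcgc
Pgk2: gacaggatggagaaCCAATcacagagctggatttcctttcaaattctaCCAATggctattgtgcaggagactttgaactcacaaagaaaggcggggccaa
Pgk1: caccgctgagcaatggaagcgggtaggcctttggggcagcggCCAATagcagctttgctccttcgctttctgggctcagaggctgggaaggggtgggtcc
Gapdhs: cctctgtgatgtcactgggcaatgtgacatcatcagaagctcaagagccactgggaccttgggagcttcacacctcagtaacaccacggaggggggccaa
Gapdh: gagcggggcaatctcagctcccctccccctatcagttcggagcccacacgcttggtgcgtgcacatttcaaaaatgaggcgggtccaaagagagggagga
Pdha2: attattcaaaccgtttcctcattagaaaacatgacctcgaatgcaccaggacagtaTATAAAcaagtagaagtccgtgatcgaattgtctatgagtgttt
Pdha1: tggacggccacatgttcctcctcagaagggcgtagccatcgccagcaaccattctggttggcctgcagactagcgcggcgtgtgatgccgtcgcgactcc
Ldhc held 2 TGACG and 3 TAACNG matches in the whole promoter window (250 bases before to 50 after the start), and Ldha held the full TGACGTCA. Gapdhs held 1 TGACG after the start, and Pdha1 held 1 that crossed it. Pgk2 had 2 CCAAT matches and Pgk1 had 1, while Pdha2 had a TATAAA that Pdha1 lacked in these letters. Among 27025 promoters of the same length, 21.0% held TGACG, 1.88% TGACGTCA, 23.2% TAACNG, 37.9% CCAAT and 14.2% TATAAA. The number of CpG dinucleotides set the pairs apart. There were 9 in Ldhc, 4 in Pgk2, 4 in Gapdhs and 4 in Pdha2, against 30 in Ldha, 24 in Pgk1, 12 in Gapdh and 21 in Pdha1, with a median of 7 over all promoters. These are descriptions of the letters alone.

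Free RNA set the floor for the abundant germ cell transcripts. Macrophages, which are not known to express the sperm lactate dehydrogenase, carried Ldhc at a median of 3526 CPM (lowest 2749, highest 4573) and a median of 3474 UMIs in all per barcode, above the 1173 CPM of spermatogonia at a median of 10899 UMIs. The counts of each gene were therefore also set against those of Prm1 and Prm2, protamine genes of condensing spermatids, in ungated barcodes under 3000 UMIs of the same library. On the assumption that all Prm1 and Prm2 UMIs before elongation were free RNA, it made up a mean of 15.6% of the UMIs in spermatogonia, 24.7% in early spermatocytes, 13.5% in pachytene spermatocytes, 16.3% in late spermatocytes, 12.9% in early round and 18.8% in later round spermatids. Levels with this floor taken off are named as such below, and none is given from the start of elongation on, when protamine transcripts are abundant in the cells themselves. Prm1 and Prm2 together already went from 3397 CPM in early round to 4881 CPM in later round spermatids. The related genes Tnp1, Tnp2 and Prm3 went from 740, 804 and 274 CPM to 1870, 1850 and 1270 CPM. If later round spermatids make protamine transcripts, the floor there is too high, which was not tested. The ungated barcodes may include cells, and their part in the floor was not tested. A second comparison used the ratio of each gene to Prm1 and Prm2 in macrophages. By that ratio, the earliest stage above macrophages in 6 of 6 libraries was the spermatogonium for Pdha2, the pachytene spermatocyte for Ldhc, Ldha, Pgk2 and Slc2a3, and the early round spermatid for Gapdhs (exact sign-flip test, two-sided, p = 0.03125, the smallest that 6 libraries can give, adjusted p = 0.0625). Macrophages express Ldha, Gapdh, Pgk1 and Slc2a3 of their own, which raises their ratios for those genes.

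**Figure D1:**
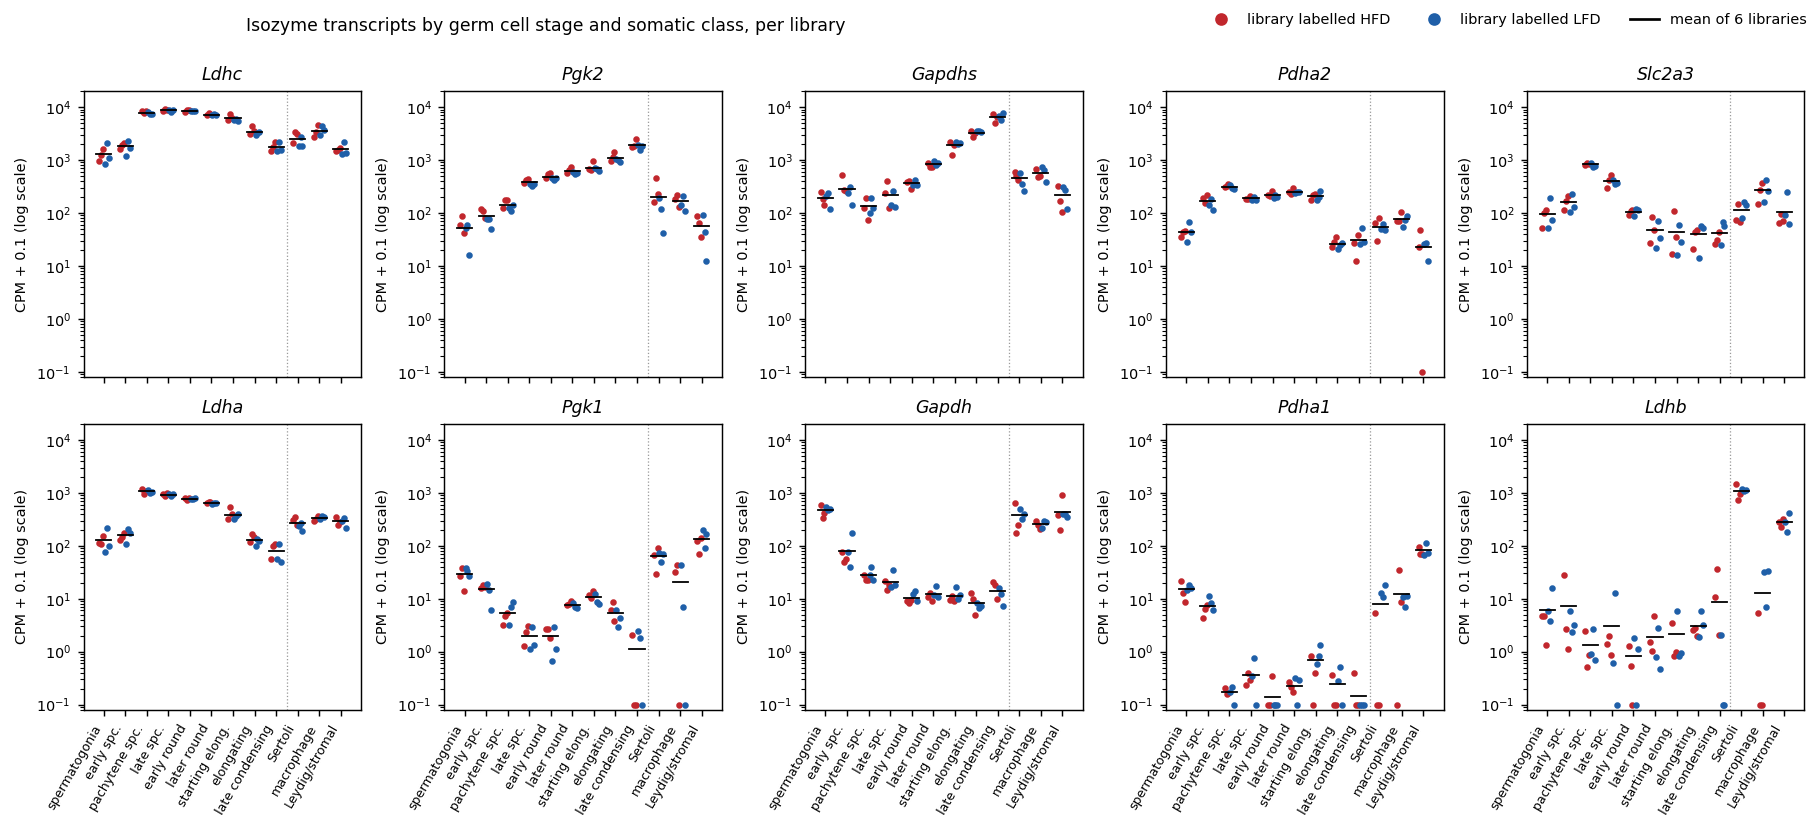
Level of the 10 genes in 9 germ stages and 3 somatic classes, as CPM with a small constant added, on a log axis. There is 1 point per library, coloured by the diet of its label, with the mean of 6 libraries as a line. Ldhc was highest from pachytene to later round spermatids, Pgk2 and Gapdhs reached 1893 and 6583 CPM in late condensing spermatids, and Pdha1 was at or below 1.2 CPM in every library from pachytene on.

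Stage changes were tested with edgeR's quasi-likelihood test on UMIs summed per library and stage, with the library as a block and p-values adjusted over 15854 genes. Between spermatogonia and pachytene spermatocytes, 5 of the 10 genes rose (Ldhc, Ldha, Pgk2, Pdha2 and Slc2a3) and 4 fell (Ldhb, Pgk1, Gapdh and Pdha1). The background was high, with 33.9% of all genes tested called higher and 38.3% called lower. From spermatogonia to later round spermatids, 5 rose (Ldhc, Ldha, Pgk2, Gapdhs and Pdha2) and 3 fell (Pgk1, Gapdh and Pdha1), against 46.1% of all genes called higher and 44.1% lower. These counts are near the background and are no result about the 10 genes as a group, so each gene is described by its own direction and size. Step by step, early spermatocytes had 5 of the genes higher and 3 lower than spermatogonia (21.9% and 27.8% of all genes tested), and pachytene spermatocytes had 5 higher and 5 lower than early spermatocytes (32.8% and 33.9%). Late spermatocytes had 3 higher and 4 lower than pachytene spermatocytes (32.0% and 34.4%), and early round spermatids 2 higher and 2 lower than late spermatocytes (21.3% and 24.5%). Later round spermatids had 5 higher and 1 lower than early round spermatids (28.4% and 18.4%), and spermatids starting elongation 5 higher and 0 lower than later round spermatids (27.1% and 29.5%). Elongating spermatids had 2 higher and 2 lower than those starting elongation (17.4% and 25.9%), and late condensing spermatids, in a fit that added them, 3 higher and 3 lower than elongating spermatids (10.6% and 11.3%). The edgeR scale lay above the CPM scale by 0.34 (log2, median over genes) in pachytene spermatocytes minus spermatogonia and by 0.73 in later round spermatids minus spermatogonia. Among adjacent stages the shift ran from -0.02 to 0.54, and log2 changes below are on the edgeR scale unless CPM is named.

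In lactate dehydrogenase a germ cell gene and a somatic gene, Ldhc and Ldha, rose together at the pachytene stage. Ldhc, the sperm-specific subunit, stood at a lowest, median and highest of 831, 1173 and 2129 CPM in spermatogonia, 1218, 1815 and 2337 CPM in early spermatocytes and 7351, 7796 and 8448 CPM in pachytene spermatocytes. No library overlapped between early and pachytene spermatocytes. Ldhc rose by a log2 change of 2.98 (SE 0.15, adjusted p = 3.31e-22) from spermatogonia to pachytene spermatocytes, and was higher in 6 of 6 libraries. Ldha, the muscle-type subunit, moved from a median of 110 CPM in spermatogonia to 1061 CPM in pachytene spermatocytes, where libraries ranged from 960 to 1207 CPM. Its rise was a log2 change of 3.44 (SE 0.16, adjusted p = 6.44e-24). With the floor taken off, Ldhc was at 15.01 ± 277 CPM (mean ± SD, n = 6) in spermatogonia and -261 ± 506 CPM in early spermatocytes, neither distinguishable from 0, and at 6752 ± 941 CPM in pachytene spermatocytes. The call of Ldhc as higher in early spermatocytes than in spermatogonia (log2 change 0.46, SE 0.14, adjusted p = 0.00686) therefore stood beside a rise in the free RNA estimate from 15.6% to 24.7%, and the part of free RNA in it was not tested.

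Ldhc stayed within a narrow band through meiosis and the round spermatid stages. Its median was 8699 CPM in late spermatocytes, 8563 CPM in early round and 7181 CPM in later round spermatids, and the ranges of stages next to each other in rank overlapped from late spermatocytes down to the start of elongation. The steps from pachytene to late spermatocytes, to early round spermatids and to later round spermatids were not called, with log2 changes of 0.16 (SE 0.14), 0.05 (SE 0.14) and 0.07 (SE 0.14), and the last 2 changed sign on the CPM scale (-0.02 and -0.23). From then on Ldhc fell in CPM in 6 of 6 libraries at each step, to a median of 5930 CPM at the start of elongation, 3349 CPM in elongating and 1651 CPM in late condensing spermatids. By edgeR the first of these steps was 0.28 (SE 0.14) and not called, against -0.26 on the CPM scale, and the next was -0.27 (SE 0.14, adjusted p = 0.121), against -0.82 in CPM and 0.07 with DESeq2. The last, in the edgeR fit that added late condensing spermatids, was called lower (-0.92, SE 0.15, adjusted p = 1.8e-06). In CPM Ldha declined earlier. It was 1061, 936, 778 and 656 CPM (medians) from pachytene to later round spermatids, lower in 6 of 6 libraries at each step. No step of Ldha was called before elongating spermatids (log2 change -1.01, SE 0.15, adjusted p = 1.12e-07). Between the round stages its change by edgeR was 0.05 (SE 0.14), against -0.26 on the CPM scale. Ldhb, the heart-type subunit, was highest in Sertoli cells, with a median of 1105 CPM there (lowest 725, highest 1478, from 5 to 84 barcodes per library). Leydig, peritubular and stromal cells had a median of 277 CPM (184 to 425), while the median of Ldhb in no germ stage exceeded 4.62 CPM. It fell from spermatogonia to pachytene spermatocytes (log2 change -1.90, SE 0.72, adjusted p = 0.0170), a call that was lost without LFD replicate 3 (log2 change -1.29).

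Ldhc and Ldha moved together, and as counted the share of Ldhc in the UMIs of Ldhc, Ldha and Ldhb barely separated cells from free RNA. It was 90.7% ± 0.802 (SD, n = 6) in spermatogonia, 88.1% ± 0.513 in pachytene spermatocytes, 91.8% ± 0.225 in later round spermatids and 96.3% ± 0.283 in elongating spermatids, against 91.0% ± 1.27 in macrophages. The share dropped in 6 of 6 libraries from early to pachytene spermatocytes (mean difference -3.51 points) and was higher in 6 of 6 in late than in pachytene spermatocytes (2.16 points). Each of these had the smallest possible exact sign-flip p of 0.03125, and adjusted p = 0.0547 over the 35 steps tested in the 5 families. In all, 20 of the 35 steps went the same way in 6 of 6 libraries, and none passed an adjusted p of 0.05. With the floor taken off, Ldha and Ldhb together were at 48.4 ± 36.9 CPM in spermatogonia, above it in 6 of 6 libraries. Ldhc was above it there in 2 of 6. In later round spermatids they were at 548 ± 27.9 CPM, and Ldhc at 5672 ± 421 CPM. The Ldhc share rose between these stages by 65.1 points with free RNA taken off, against 1.04 points as counted.

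**Figure D2:**
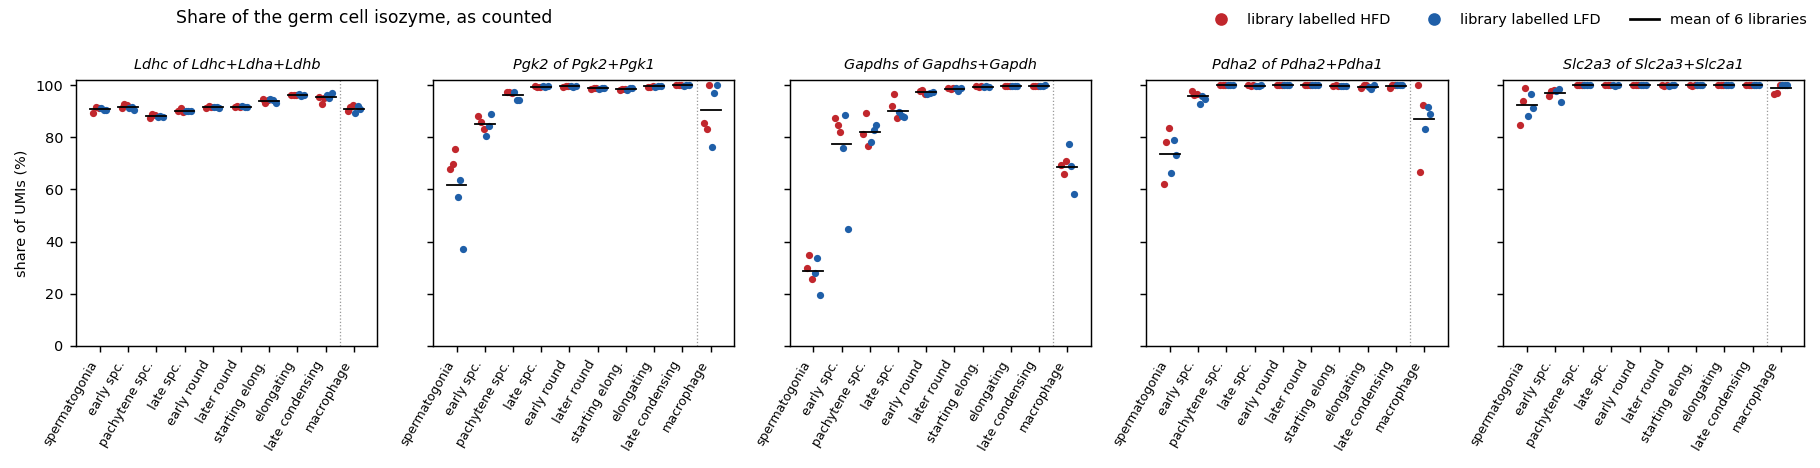
Share of the germ cell gene in the UMIs of its family, in percent, for 9 germ stages and macrophages, 1 point per library coloured by the diet of its label, with the mean of 6 libraries as a bar. The Ldhc share stayed near that of macrophages, whereas the shares of Pgk2, Gapdhs and Pdha2 started at 61.9%, 28.5% and 73.7% in spermatogonia and were at least 97.9% in all 6 libraries in later round spermatids.

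Phosphoglycerate kinase passed from the X-linked gene to its retrocopy across meiosis. Pgk1 stood at a median of 30.6 CPM in spermatogonia (lowest 13.7, highest 38.0), 16.4 CPM in early spermatocytes, 4.97 CPM in pachytene spermatocytes and 1.71 CPM in late spermatocytes. Each of these steps was called lower, and the change from spermatogonia to pachytene spermatocytes was -2.30 (log2, SE 0.25, adjusted p = 1.08e-11, lower in 6 of 6 libraries). Pgk2 moved the other way, with medians of 54.5, 79.6 and 136 CPM in spermatogonia, early and pachytene spermatocytes and 365 CPM in late spermatocytes. The libraries of late spermatocytes (329 to 431 CPM) lay above all of those of pachytene spermatocytes (109 to 178 CPM). Taking off the floor left -5.85 ± 13.6 CPM of Pgk2 in spermatogonia and -5.04 ± 12.3 CPM in early spermatocytes, 93.1 ± 32.3 CPM in pachytene and 312 ± 58.8 CPM in late spermatocytes. On that scale the family was carried by Pgk1 before pachytene (28.8 ± 9.10 CPM in spermatogonia) and by Pgk2 from pachytene on. The share of Pgk2 as counted was 61.9% ± 13.6 in spermatogonia, 85.2% ± 3.23 in early, 96.4% ± 1.62 in pachytene spermatocytes and a median of 99.6% (99.2% to 99.7%) in late spermatocytes, higher in 6 of 6 libraries at each step (exact sign-flip p = 0.03125, adjusted p = 0.0547). Macrophages showed 90.3% ± 9.96, from 10 to 41 UMIs of both genes per library.

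Pgk1 came back in round spermatids. Its median moved from 2.13 CPM in early round spermatids (0.580 to 2.82) to 7.53 CPM in later round spermatids (6.49 to 8.91), with no overlap between the ranges, and to 10.8 CPM at the start of elongation (7.90 to 13.8). The rise was 2.30 (log2, SE 0.31, adjusted p = 2.52e-08) at the former step and 1.08 (SE 0.23, adjusted p = 6.10e-05) at the latter, higher in 6 of 6 libraries in each. Beside it the share of Pgk2 dropped from 99.6% to 98.8%, in 6 of 6 libraries, so that Pgk2 still held nearly all UMIs of the family. The step was not particular to Pgk1 among X-linked genes, of which 37.9% of 565 rose from early to later round spermatids, against 27.9% of 15208 autosomal genes. Pgk2 was called higher at every step tested and reached a median of 1832 CPM (1544 to 2502) in late condensing spermatids. The first of these steps, to early spermatocytes (log2 change 0.70, SE 0.20), joined stages where Pgk2 was at the level of free RNA. It stood beside a rise in the free RNA estimate from 15.6% to 24.7%, and the part of free RNA in it was not tested. From the later round stage on, however, the UMIs of Pgk2 per barcode stayed level, with means of 23.4 ± 3.62 (SD, n = 6) in later round spermatids, 23.7 ± 3.77 at the start of elongation, 21.0 ± 3.91 in elongating and 20.9 ± 3.39 in late condensing spermatids. The CPM of Pgk2 went up over these stages while the total UMIs of a barcode went from a median of 35429 to 8757. In pachytene spermatocytes the level per barcode varied widely with the library, and the replicate 1 libraries carried 394 and 352 UMIs of Ldhc per barcode and the other 4 carried 129 to 276. The total UMIs of these barcodes differed too, with medians of 41999 and 37844.5 against 6702 to 15811. Relative to all UMIs, Ldhc there was at 7351 to 8448 CPM over the 6 libraries.

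**Figure D3:**
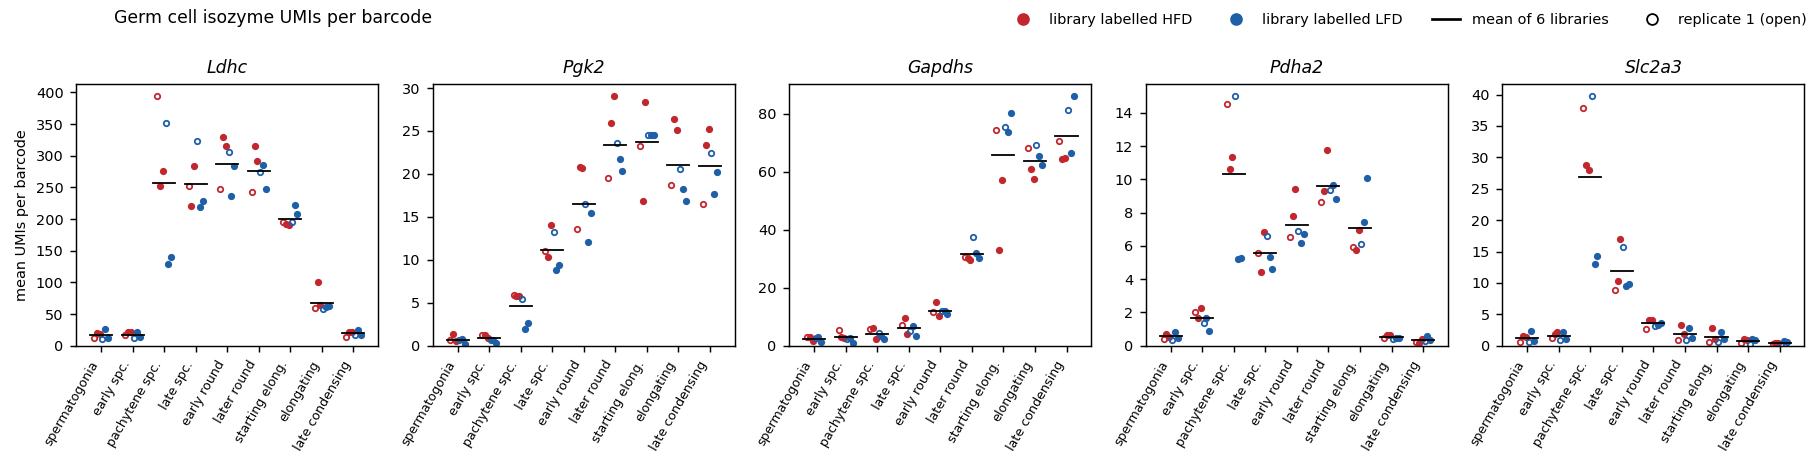
Mean UMIs per barcode of the 5 germ cell genes in 9 germ stages, on linear axes, 1 point per library coloured by the diet of its label, open for replicate 1, with the mean of 6 libraries as a bar. Pgk2 stayed at means of 20.9 to 23.7 UMIs per barcode from later round spermatids on and Gapdhs at 63.9 to 72.3 from the start of elongation, whereas Ldhc went from 276 to 19.6 between later round and late condensing spermatids.

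Glyceraldehyde-3-phosphate dehydrogenase changed genes with a gap between the somatic and the germ cell form. Gapdh, the general enzyme, stood at a median of 476 CPM in spermatogonia (336 to 591), 65.7 CPM in early spermatocytes (39.0 to 177) and 25.6 CPM in pachytene spermatocytes (22.0 to 40.2). The highest early spermatocyte value belonged to LFD replicate 3, where the gate held 43 barcodes. Gapdh fell by 2.77 (log2, SE 0.20, adjusted p = 3.49e-16) between the former stages and by 3.75 (SE 0.19, adjusted p = 2.66e-22) between spermatogonia and pachytene spermatocytes. Gapdhs, the form bound to the fibrous sheath of the sperm tail, did not take its place at once. It had medians of 197, 261 and 124 CPM in spermatogonia, early and pachytene spermatocytes, and the change from spermatogonia to pachytene spermatocytes was -0.15 (log2, SE 0.24, adjusted p = 0.594) with 2 libraries higher and 4 lower. That sign was not stable, at 0.53 with barcodes thinned to 5000 UMIs and -0.78 with DESeq2. The step from early to pachytene spermatocytes was called lower (-0.74, SE 0.24, adjusted p = 0.00530), beside a drop of the free RNA estimate from 24.7% to 13.5%.

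With the floor taken off, Gapdhs stood at 34.4 ± 20.2 CPM in spermatogonia, 44.2 ± 40.4 CPM in early, 4.41 ± 16.9 CPM in pachytene and 54.1 ± 58.0 CPM in late spermatocytes, 234 ± 52.3 CPM in early round and 650 ± 138 CPM in later round spermatids. Relative to the macrophage ratio it was higher in 4 of 6 libraries in spermatogonia and 2 of 6 in early spermatocytes. In pachytene spermatocytes it was higher in 2 of 6, in late spermatocytes in 4 of 6, and in both round stages in 6 of 6. The sum of Gapdh and Gapdhs above the floor therefore had its lowest value in pachytene spermatocytes, with 505 ± 103 CPM in spermatogonia, 119 ± 55.0 CPM in early spermatocytes, 29.8 ± 19.3 CPM in pachytene spermatocytes, 72.2 ± 63.1 CPM in late spermatocytes, 242 ± 53.5 CPM in early round and 659 ± 138 CPM in later round spermatids. These are rates relative to all UMIs and not molecules per cell.

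From late spermatocytes on Gapdhs rose at every step tested. Its medians were 191 CPM in late spermatocytes, 363 CPM in early round spermatids, 841 CPM in later round spermatids, 2046 CPM at the start of elongation and 3455 CPM in elongating spermatids, and no range overlapped its neighbour's among the last 4. The log2 change was 1.54 (SE 0.24, adjusted p = 3.00e-07) between the round stages, 1.78 (SE 0.24, adjusted p = 7.50e-09) to the start of elongation and 1.29 (SE 0.23, adjusted p = 8.64e-06) to elongating spermatids. When late condensing spermatids were added, Gapdhs rose again by 1.06 (SE 0.24, adjusted p = 0.000661), to a median of 6659 CPM. UMIs of Gapdhs per barcode went from a mean of 12.1 ± 1.69 in early round spermatids to 31.7 ± 2.91 in later round spermatids and 65.7 ± 17.9 at the start of elongation, and were 63.9 ± 4.44 and 72.3 ± 9.25 afterwards. HFD replicate 2 was the low library at the start of elongation, with 32.9 UMIs per barcode against 57.1 to 80.3 in the other 5. The Gapdhs share as counted was 28.5% ± 5.65 in spermatogonia, 82.2% ± 4.62 in pachytene spermatocytes, 97.2% ± 0.585 in early round and 99.75% ± 0.0896 in elongating spermatids, against 68.4% ± 6.29 in macrophages. With the floor taken off, pachytene spermatocytes had Gapdhs at 4.41 ± 16.9 CPM and Gapdh at 25.4 ± 6.54 CPM. The share as counted there therefore does not show which gene the cells themselves carried. Gapdh itself was at medians of 9.28 to 11.2 CPM from early round spermatids to the start of elongation. EdgeR called it higher at both steps (log2 changes 0.54, SE 0.21, and 0.47, SE 0.21), but it was higher in only 4 and 2 of 6 libraries in CPM, where the second change was -0.08.

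**Figure D4:**
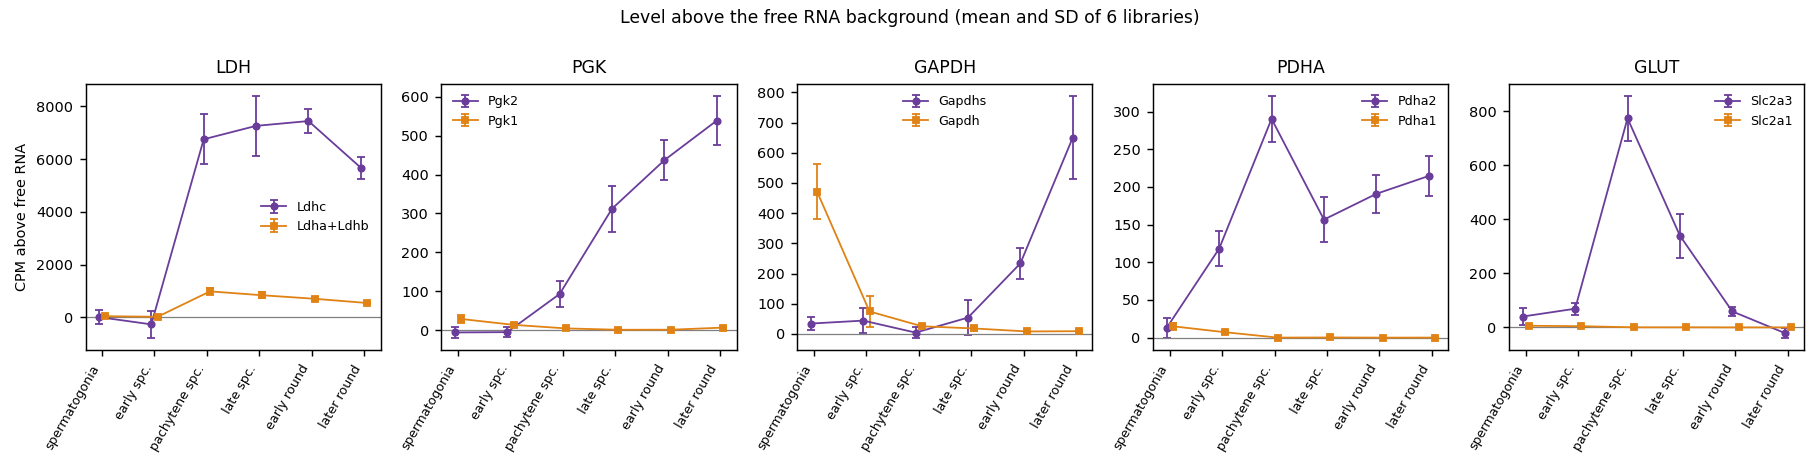
CPM above the free RNA floor for the germ cell genes and the somatic genes of each family, from spermatogonia to later round spermatids, as the mean of 6 libraries with SD bars. The floor comes from the ratio of each gene to Prm1 and Prm2 in ungated barcodes under 3000 UMIs. Gapdh and Gapdhs were both low in pachytene spermatocytes, at 25.4 and 4.41 CPM.

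By the macrophage ratio, the germ cell copy of pyruvate dehydrogenase E1 alpha was the one above background earliest. Pdha2, the retrocopy, stood at a lowest, median and highest of 28.4, 44.1 and 66.7 CPM in spermatogonia, 113, 169 and 215 CPM in early spermatocytes and 282, 317 and 346 CPM in pachytene spermatocytes, with no overlap between the stages. It rose by 1.93 (log2, SE 0.15, adjusted p = 3.84e-15) at the former step and by 1.28 (SE 0.13, adjusted p = 9.40e-12) at the latter. With the floor taken off it was at 13.2 ± 13.2 CPM in spermatogonia, 118 ± 23.6 CPM in early spermatocytes and 290 ± 30.4 CPM in pachytene spermatocytes, and it exceeded the floor in 6 of 6 libraries in all 3 stages. By this floor it was not alone, since Gapdhs and Slc2a3 also exceeded it in 6 of 6 libraries in spermatogonia and early spermatocytes, with higher means than Pdha2 in spermatogonia (34.4 and 40.2 CPM). Pdha1, the X-linked gene, had medians of 15.2 CPM in spermatogonia, 6.88 CPM in early spermatocytes and 0.0683 CPM in pachytene spermatocytes. No library of pachytene spermatocytes exceeded 0.115 CPM, whereas those of early spermatocytes started at 4.18 CPM. The fall from spermatogonia to pachytene spermatocytes was the largest among the 10 genes (log2 change -6.86, SE 0.37, adjusted p = 1.89e-21). The share of Pdha2 was 73.7% ± 8.28 in spermatogonia, 95.7% ± 1.68 in early spermatocytes and 99.98% ± 0.0137 in pachytene spermatocytes. Pdha1 stayed low afterwards, and its levels of 0 to 1.2 CPM per library at the start of elongation, although called higher than in later round spermatids (2.45, SE 0.52, adjusted p = 7.59e-05), remained below those of spermatogonia in every library. Pdha2 was at medians of 184 to 247 CPM from late spermatocytes to the start of elongation, and fell by 2.47 (log2, SE 0.15, adjusted p = 8.62e-19) to 25.8 CPM in elongating spermatids (20.4 to 34.4).

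The 2 X-linked genes moved with their chromosome. Between spermatogonia and pachytene spermatocytes, 412 of 565 X-linked genes tested (72.9%) were called lower and 4 higher, with a median log2 change of -4.75, against 37.2% of 15208 autosomal genes called lower and a median of -0.02. The Pgk1 change of -2.30 was smaller than the X-linked median and that of Pdha1 larger. Gapdh, on chromosome 6, fell by 3.75 as well.

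Slc2a3, the high-affinity glucose transporter GLUT3, peaked in pachytene spermatocytes and was not above the floor in later round spermatids. Its lowest, median and highest levels were 51.2, 86.4 and 191 CPM in spermatogonia, 104, 149 and 231 CPM in early spermatocytes, 745, 832 and 897 CPM in pachytene spermatocytes, 300, 395 and 523 CPM in late spermatocytes and 89.0, 111 and 119 CPM in early round spermatids. The rise to pachytene spermatocytes was 3.62 (log2, SE 0.24, adjusted p = 1.77e-18), the largest among the 10 genes for that comparison. It then fell by 1.06 (SE 0.21, adjusted p = 2.39e-05), 1.86 (SE 0.22, adjusted p = 1.92e-09) and 1.00 (SE 0.22, adjusted p = 0.000139) at the following 3 steps, lower in 6 of 6 libraries at each. Above the floor it stood at 40.2 ± 32.7 CPM in spermatogonia, 69.2 ± 22.4 CPM in early spermatocytes, 773 ± 82.6 CPM in pachytene spermatocytes, 339 ± 80.7 CPM in late spermatocytes and 59.2 ± 17.2 CPM in early round spermatids, and at -20.7 ± 17.4 CPM in later round spermatids, where 0 of 6 libraries exceeded the floor. The later round value would be too low if protamine transcripts of the cells themselves raised the floor there, which was not tested. Slc2a1, the general transporter GLUT1, was at a median of 6.86 CPM in spermatogonia and 0.323 CPM in pachytene spermatocytes, a fall of 3.95 (log2, SE 0.46, adjusted p = 7.96e-10). The Slc2a3 share was 92.3% ± 5.26 in spermatogonia and 99.96% ± 0.0123 in pachytene spermatocytes. The lactate transporter gene Slc16a7 (MCT2) was at 21.8 ± 10.8 CPM in spermatogonia and 325 ± 45.9 CPM in later round spermatids (log2 change 4.74, SE 0.18, adjusted p = 2.06e-27).

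Genes around these steps were taken from a list of 55 genes of glucose uptake, glycolysis, lactate transport and pyruvate dehydrogenase, of which 44 were tested. Between spermatogonia and pachytene spermatocytes 22 were called higher and 17 lower, where 33.9% and 38.3% of all genes were, with a median log2 change of 0.49 against -0.06 for all genes. The largest rises were in Ldhal6b, a further lactate dehydrogenase gene (229 ± 105 to 1572 ± 127 CPM), Pgam2, a phosphoglycerate mutase (140 ± 52.6 to 976 ± 168 CPM), the phosphofructokinase genes Pfkm and Pfkp, the fructose transporter Slc2a5 and Dlat, the E2 subunit of pyruvate dehydrogenase. The largest falls were in Pdk1 (24.2 ± 6.28 to 0.220 ± 0.146 CPM) and Pdk3, kinases that restrain pyruvate dehydrogenase, in hexokinase Hk2, aldolase Aldoc, Slc2a1 and Emb, a partner of lactate transporters. From spermatogonia to later round spermatids 29 were called higher and 11 lower, where 46.1% and 44.1% of all genes were, with a median of 1.35 against 0.15 for all genes. Here the aldolase retrocopies Aldoart2 (23.5 ± 11.4 to 451 ± 36.0 CPM) and Aldoart1 (14.7 ± 7.91 to 136 ± 13.4 CPM) stood at the top with Slc16a7, followed by Eno1b, Pgam2 and Pfkfb3. Aldoc, the mutase Pgam1 (168 ± 22.7 to 5.42 ± 1.73 CPM), Hk2, Pdk1, Slc2a1 and the phosphatase Pdp2 had the largest falls. Aldolase and phosphoglycerate mutase thus had genes both among the largest falls and among the largest rises.

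The genes whose levels were most like those of the germ cell genes were ranked by Pearson's r of log2(CPM + 1) over 48 sums (6 libraries by 8 stages), among 8963 genes with a mean of at least 10 CPM. The 8 sums of a library share its preparation, so r is a description. Ldhc was most like Cetn1 (0.994), Cdhr4 (0.987) and Spata4 (0.982). Pgk2 was most like Spa17 (0.980), 4933438B17Rik (0.979) and Zbbx (0.976), and Gapdhs most like Akap4 (0.992), Pwwp2b (0.991) and 1700029H14Rik (0.990). Pdha2 had looser neighbours in 1700020N01Rik (0.945), Clcn4 (0.942) and Ybx1 (0.938), and Slc2a3 was most like Dnaaf4 (0.965), Zfp956 (0.961) and Cdc42ep3 (0.960). Among the members themselves, Ldhc and Ldha had r = 0.913 over the same sums, whereas Ldhc and Gapdhs had 0.0563.

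No difference by diet was detected in any of the 10 genes. The comparison was made in 8 germ stages, in macrophages and over all barcodes of each library (called whole testis), with edgeR's quasi-likelihood test on the sums of 3 libraries labelled HFD against 3 labelled LFD. Among all genes tested 0 were called in each of these 10 units (percent called 0) by edgeR and by DESeq2, although 87 to 674 genes by edgeR and 38 to 430 by DESeq2 had an unadjusted p below 0.05. The 10 genes gave 83 tests, of which 0 were called and 2 had an unadjusted p under 0.05, both for Pgk2. In early spermatocytes Pgk2 stood at 121, 111 and 81.9 CPM in the libraries labelled HFD and 75.7, 77.2 and 48.8 CPM in those labelled LFD (log2 change 0.58, SE 0.22, adjusted p = 1.00). In late spermatocytes it stood at 372, 424 and 431 CPM against 359, 329 and 354 CPM (log2 change 0.26, SE 0.11, adjusted p = 0.981). In pachytene spermatocytes, early round spermatids and spermatids starting elongation, where same-numbered libraries of both diets deviated together, a fit with the replicate number as a block called 82, 4 and 17 genes, of which 0 were among the 10. Pgk2 in pachytene spermatocytes stood at 127, 175 and 178 CPM in the libraries labelled HFD and 124, 109 and 144 CPM in those labelled LFD, higher in HFD in 3 of 3 same-numbered pairs, with a log2 change of 0.34 (adjusted p = 0.411) under the block and 0.34 (SE 0.16, adjusted p = 0.999) without it. The diets did not overlap for Pgk2 in early and late spermatocytes, nor did 9.01% and 6.91% of all genes tested in those stages. Pgk2 in early spermatocytes was at the level of free RNA, as given above.

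**Figure D5:**
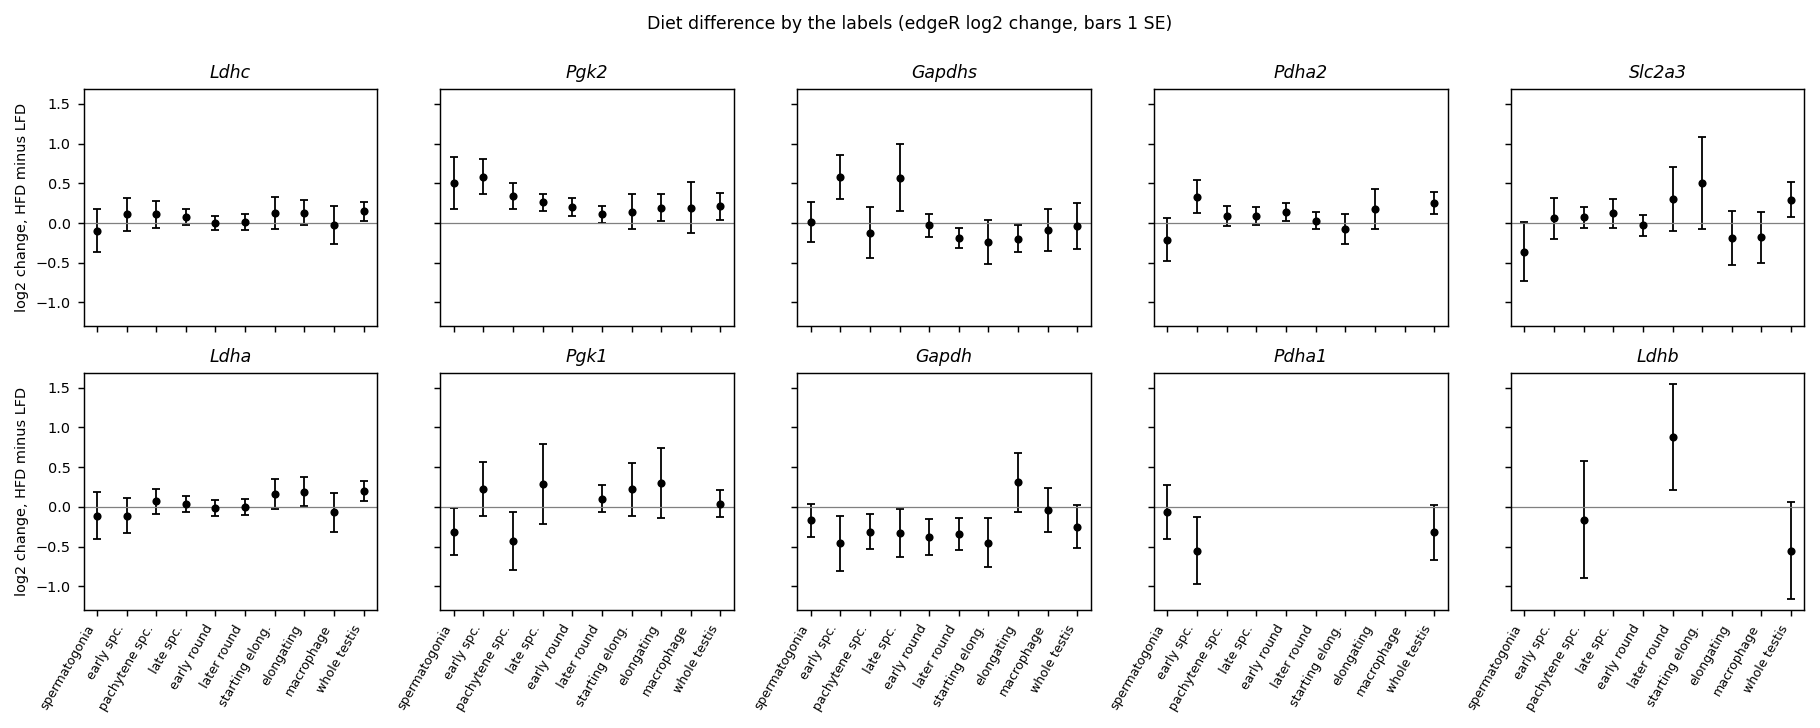
Difference by diet label (HFD minus LFD, edgeR log2 change, bars 1 SE, 3 libraries per group) for the 10 genes in 8 germ stages, macrophages and whole testis, where the gene passed the filter on low counts. None of the 83 differences was called, and the 2 with an unadjusted p under 0.05 are those of Pgk2 in early and late spermatocytes.

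Precision differed between genes and stages, with an SE for Gapdhs of 0.13 in later round spermatids, 0.28 at the start of elongation and 0.42 in late spermatocytes. In later round spermatids Ldhc stood at 6943, 7855 and 7321 CPM in the libraries labelled HFD and 7007, 7295 and 7066 CPM in those labelled LFD (log2 change 0.01, SE 0.10), and Pgk2 at 561, 646 and 729 against 604, 556 and 578 CPM (0.11, SE 0.11). Gapdhs stood at 875, 752 and 742 against 956, 817 and 866 CPM (-0.19, SE 0.13). Over whole testis the log2 changes of the 10 genes ran from -0.55 (Ldhb, SE 0.61) to 0.29. Ldhb stood there at 16.5, 2.16 and 3.77 CPM in the libraries labelled HFD and 15.5, 10.6 and 8.57 CPM in those labelled LFD, beside 65, 5 and 10 against 84, 23 and 17 Sertoli-gated barcodes. Fewer cells of a type and less RNA per cell cannot be told apart in such sums. Whole-testis Gapdhs was 1317 and 1184 CPM in the replicate 1 libraries of the 2 diets and 638 to 857 CPM in the other 4, a split that followed the replicate number and not the label.

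The germ cell share by diet gave 45 tests (5 families, 8 stages and whole testis), with 3 in which the groups did not overlap. These were the Pgk2 share in spermatogonia (71.1% ± 3.95 against 52.6% ± 13.7, n = 3 each), the Pdha2 share in early spermatocytes (96.9% ± 0.924 against 94.5% ± 1.43) and the Pgk2 share in whole testis (98.6% ± 0.0382 against 98.4% ± 0.116). Each had an exact permutation p of 0.1, two-sided, the smallest that 3 against 3 can give, and adjusted p = 1.00. Random labels alone would separate the groups in a share of 0.1 of such tests, so the count of 3 is no result. The Pgk2 share in spermatogonia rested on 43 to 225 UMIs per library, with LFD replicate 3 at 37.2%. Pgk2 there was at the level of free RNA (-5.85 ± 13.6 CPM with the floor taken off). Whether diet acted differently in later round spermatids than in pachytene spermatocytes was tested with an interaction term, which called 0 of 16306 genes by edgeR (147 at an unadjusted p under 0.05). All 9 of the members tested had adjusted p = 1.00, with log2 differences from -0.18 (Pgk2, SE 0.16) to 1.01 (Ldhb, SE 0.91).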

How the data were processed

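Testis cell suspensions were run on a droplet platform with 10000 cells targeted per library. The labels and the methods name different versions of the library kit. The authors aligned reads to mm10 with Cell Ranger 6.0.1 and deposited raw UMI counts per gene and barcode for 6 libraries, with no normalization. Levels rest on UMIs near the polyadenylated end of transcripts, without regard here to length, and depth was 39196921 to 95845514 UMIs per library. Intervals of share were not computed per library, and spreads are between libraries.

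Barcodes of at least 5000 UMIs were placed in the germ stage with the best marker score, if it was at least 0.2 and 1.1 times the next, and elongating spermatids were divided by Tnp2 at 0.1 of the protamine and transition protein UMIs (181 of 1755 barcodes lay near this limit). Somatic gates had no UMI minimum. The scoring rule, the free RNA floor and the late condensing stage in the fit were chosen after seeing the data. The members, lists and markers were chosen with earlier results of these data known. Doublets were not removed in the main fit, since the study states no removal, and an alternative dropped the 3356 barcodes scored highest by Scrublet. UMIs were summed per library and stage and tested with edgeR 4.0.16 (TMM, filterByExpr, quasi-likelihood, two-sided, Benjamini-Hochberg, calls at an adjusted p under 0.05) in R 4.3.3, with DESeq2 1.42.0 as an alternative, and checked on simulated data. Stages needed 20 barcodes in every library, which left out late condensing spermatids (13 in HFD replicate 2) and, for the diet test, Sertoli and Leydig, peritubular and stromal cells. Shares were tested exactly over libraries. All 10 members were named, and from the pathway list up to 6 rising and 6 falling calls by size in the 2 comparisons with spermatogonia.

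Same-numbered libraries of the 2 diets deviated together (all 3 correlations above 0.1) in pachytene spermatocytes, early round spermatids and spermatids starting elongation, and not in the other 5 germ stages or whole testis. The labels do not say what a number shares. Other alternatives were no filter on low counts, leaving out each library, a stricter gate, barcodes thinned to 5000 UMIs, no library block, a term for replicate 1, and shares with the macrophage rate or the free RNA taken off. RefSeq promoters matched 9 of 10 members. Coordinates are from the GRCm38 annotation.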

Additional observations from a re-analysis of the deposited data

Results flagged for a closer look

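The comparisons above use the gated barcodes, and the 37512 barcodes in no gate held 126301144 UMIs that entered the comparisons only through the whole-testis sums and the free RNA floor. All 10 members were counted there above the 0.0238 CPM that a count of 0 would allow (3 counts, counting error only). Ldhc stood at 8044 CPM (6658 to 8923 across the libraries), Ldha at 590.0 CPM, Ldhb at 8.04 CPM (2.27 to 18.5), Pgk2 at 415 CPM, Pgk1 at 5.29 CPM, Gapdhs at 953 CPM, Gapdh at 19.7 CPM, Pdha2 at 199 CPM, Pdha1 at 0.491 CPM and Slc2a3 at 343 CPM. These barcodes had a median of 2385 UMIs, and what share of them were cells was not tested.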

How the results depend on the processing

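Of the values that answer a comparison, 312 alternatives left the direction and the call as they were, or the count within 1.5 times. With barcodes thinned to 5000 UMIs, fewer genes were called at 6 of the stage steps, 4631 from spermatogonia to early spermatocytes, 6022 from pachytene to late spermatocytes, 3334 to early round spermatids, 4176 to later round spermatids, 5256 to the start of elongation and 3834 to elongating spermatids (against 7880, 10530, 7260, 7418, 8974 and 6871). Thinning leaves fewer UMIs in each sum. Without a filter on low counts the diet test called 5 genes in spermatogonia, 4 in early spermatocytes, 70 in early round and 103 in later round spermatids, 36 at the start of elongation, 15 in elongating spermatids and 2 in macrophages, against 0 with the filter, and the cause was not tested. With the replicate number as a block it called 82 genes in pachytene and 56 in late spermatocytes, 4 in early round spermatids, 17 at the start of elongation, 1 in elongating spermatids, 4 in macrophages and 24 in whole testis, none of them a member (smallest adjusted p of a member 0.104, Ldhb in whole testis, log2 change -1.04), and 6 of 6 libraries correlated best with their own number in 3 of the 8 germ stages. The block changed no other call. A term for replicate 1 gave 0 calls. Leaving out 1 library gave 0 to 1 calls in spermatogonia (1 without HFD replicate 1), 0 to 2 in whole testis (2 without HFD replicate 1) and 0 to 16 in elongating spermatids (16, 10 and 7 without LFD replicates 1, 2 and 3). The whole-testis share by diet (points, HFD minus LFD) was unstable in sign. Leaving out 1 library gave -0.490 to 0.0322 for Ldhc (main -0.230) and -0.00132 to 0.0887 for Slc2a3 (main 0.0364), and within replicate 1 it was -0.00924 for Gapdhs (main 0.542), -0.126 for Pdha2 (main 0.168) and -0.0737 for Slc2a3. Shares in germ stages whose diets did not overlap numbered 2, and 3 to 6 with 1 library left out. Smaller groups fail to overlap more often by chance, so these counts cannot be set against each other. Steps of the Slc2a3 share with all libraries the same way numbered 1, and 1 to 2 with 1 library left out, where fewer libraries also agree more often by chance. The share of the Gapdhs family moved from a span of 70.1 to 91.9 points, from spermatogonia to later round spermatids, with free RNA taken off, that of Pgk2 to 92.0, Pdha2 to 61.8 and Ldhc to 65.1 points. With the macrophage rates taken off, the span for Gapdhs was 100 points, and the other spans and all step counts gave no value, since both isozymes fell below the rate in at least 1 library.

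Of single genes, the change of Gapdhs from spermatogonia to pachytene spermatocytes had a positive sign without a filter (0.10), with late condensing spermatids added (0.03), thinned (0.53) and without HFD replicate 1 (0.11) or 3 (0.14), and was called lower by DESeq2 (-0.78, adjusted p = 0.00248). With 1 library left out it ran from -0.32 to 0.14. Slc2a3 from spermatogonia to later round spermatids was 0.05 without HFD replicate 3, and Ldhc from the start of elongation to elongating spermatids was 0.07 with DESeq2. With 1 library left out, whole-testis Pgk1 by diet ran from -0.07 to 0.17 (negative without HFD replicate 1 or LFD replicate 2 or 3) and whole-testis Gapdhs from -0.56 to 0.19 (positive without HFD replicate 2 or 3 or LFD replicate 1). The diet tests could not separate small differences, with a median SE of 0.19 to 0.34 (log2) over all genes.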
